A study of Mus musculus with 38 samples.

Results

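Kidneys with Adriamycin nephropathy were compared with healthy kidneys in mice that received only the vehicle of the hormone FGF23. The comparison took the 4 Adriamycin vehicle libraries (mice Ad5 to Ad8) and the 4 healthy vehicle libraries (mice Ad1 to Ad4) by their labels, 8 of the 38 libraries of the series. All 8 mice were female BALB/c. At 8 weeks of age the diseased animals were given Adriamycin intravenously in 1 dose, and the healthy animals were given saline. Every mouse then received intravenous PBS with bovine albumin, the FGF23 vehicle, 24 h before euthanasia at 10 weeks of age. Bulk RNA-Seq was made from a piece of each kidney, so a gene can be lower because cells of a type were fewer or because each held less of its RNA, and these cannot be told apart. The matched pair of groups with FGF23 (mice Ad9 to Ad16), in which the same hormone vehicle carried recombinant human FGF23, shares no library with the vehicle pair. The other disease model of the series used for comparison was anti-glomerular basement membrane (anti-GBM) disease in male C57BL/6 mice, in which daily vehicle injections were given, so model, sex, strain and injection schedule cannot be told apart there.

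Adriamycin, or doxorubicin, is an anthracycline that traps topoisomerase II on DNA, and the resulting breaks activate the tumor suppressor p53. In BALB/c mice it damages podocytes, the cells that carry the slit diaphragm of the glomerular filter, and leads to proteinuria and scarring of glomeruli. Proximal tubule cells take up filtered protein through megalin and cubilin, and secrete organic anions and cations into the urine.

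Total counts ran from 20396181 to 27583911 in the healthy and from 17187586 to 23228644 in the Adriamycin libraries. The libraries were alike: Pearson's r of log2 CPM (gene counts relative to the scaled library total) across genes was 0.983 to 0.994 within groups and 0.982 to 0.993 between them. Nephrin (Nphs1, at least 44 CPM) of podocytes and uromodulin (Umod, at least 3480 CPM) of the thick ascending limb marked all 8 libraries as kidney. Markers of fat, urothelium and inner medulla differed between mice. All 9 fat markers tested and all 7 urothelium markers tested had negative log2 fold changes, none called, with medians of −4.15 and −1.96. Adipoq, a fat cell gene, was at 8.83, 0.134, 3.97 and 0.169 CPM in mice Ad1 to Ad4 and at 0 in Ad5 to Ad8. The urothelium markers summed to 18.7, 53.9, 3.58 and 28 CPM in mice Ad1 to Ad4 and to 4.63, 13.6, 10.3 and 1.31 CPM in Ad5 to Ad8, so the groups overlapped. Slc14a2, the inner medullary urea transporter, was at 0 in mouse Ad8 and between 27.1 and 127 CPM in the other mice. Aqp4, a water channel of the collecting duct, was at 70.7 to 103 CPM in healthy and 33.7 to 63.8 CPM in Adriamycin kidneys. The part of these differences in the results was not tested. Each count was also made without mice Ad1, Ad3 and Ad8, an alternative chosen after seeing the data that leaves 5 vehicle libraries. A lower count there can come from tissue content or from fewer mice, and these cannot be told apart.

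Few genes differed between Adriamycin and healthy kidneys. Of 16020 genes tested, 53 (0.331%) passed an adjusted p of 0.05 in edgeR's quasi-likelihood test, 19 (0.119%) higher and 34 (0.212%) lower with Adriamycin, and 1325 (8.27%) had an unadjusted p below 0.05. The genes that rose were mostly changed by less than 2-fold (14 of 19), with a median log2 fold change of 0.73. Those that fell had a median of −1.48, and 8 of 34 were changed by less than 2-fold. All 53 had CPM values that did not overlap between the groups, which was so for 5.68% of all tested genes. DESeq2 called 147 genes, among them all 53. A fit of the 8 vehicle libraries alone called 19 genes, of which 15 were among the 53. The count of 53 depended on which mouse was left out. It was 10 without Ad3 or without Ad7, 12 without Ad1, and 13 without Ad5 or without Ad8. Without Ad2 it was 43, without Ad4 62 and without Ad6 100. No gene passed when Ad1, Ad3 and Ad8 were all left out, although all 53 kept their direction. Of the 53, 10 genes passed whichever mouse was left out. These were Abcb1b, Cdkn1a, Eda2r and Cyp2d9 among the genes that rose, and Kap, Col6a6, Cacna1i, Ly6f, Rdh19 and the predicted gene 1110032F04Rik among those that fell. Every other called gene lost the threshold without at least 1 of the mice.

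**Figure D1:**
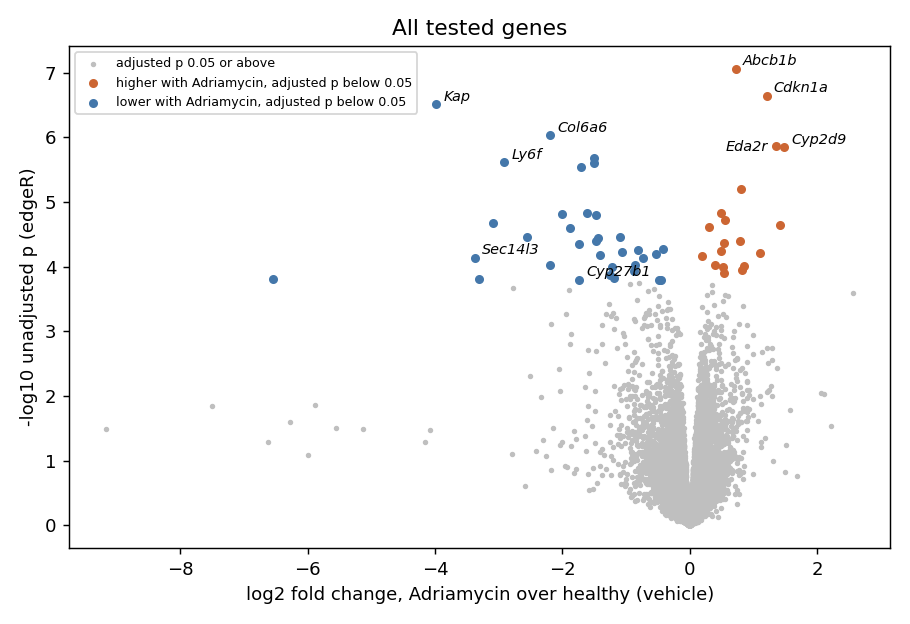
Each point is 1 of the 16020 tested genes, with its log2 fold change of Adriamycin over healthy kidneys on the horizontal axis and −log10 of the unadjusted p on the vertical axis. The 19 colored points on the right and the 34 on the left passed an adjusted p of 0.05, and the 34 reach further from 0. The leftmost colored point is Tprg, whose counts were 0 in all Adriamycin libraries, so that its fitted value is no measure of size.

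Abcb1b (ENSMUSG00000028970, chromosome 5, 8798147 to 8866315, GRCm38) encodes a P-glycoprotein that pumps doxorubicin and other drugs out of cells. It was measured at 54.3, 58.7, 48.7 and 60.8 CPM in the healthy mice and at 98.8, 81.7, 96.7 and 92.7 CPM in the Adriamycin mice. All Adriamycin values thus lay above all healthy values, with a log2 fold change of 0.73 ± 0.08 (SE, n = 4 and 4, adjusted p = 0.0014). Its neighboring paralog Abcb1a, with which it may share reads, was at 0.20 ± 0.15 on the log2 scale (adjusted p above the threshold).

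Cdkn1a (ENSMUSG00000023067, chromosome 17, 29090976 to 29100727) encodes p21, the cyclin-dependent kinase inhibitor through which p53 stops the cell cycle. Healthy kidneys held 4.87, 6.44, 5 and 4.83 CPM and Adriamycin kidneys 12.2, 12.2, 12.1 and 12.5 CPM. The 4 diseased mice were nearly equal and all were above the healthy ones. The log2 fold change was 1.21 ± 0.14 (adjusted p = 0.00165). Eda2r, a receptor of the tumor necrosis factor family and a p53 target on the X chromosome, was at 1.03, 1.07, 0.735 and 1.14 CPM in healthy and at 2.25, 2.94, 2.41 and 2.74 CPM in Adriamycin kidneys. The groups were apart, and the log2 fold change was 1.36 ± 0.18 (adjusted p = 0.00381).

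The median of the p53 target list moved little. Of 39 members tested, 2 rose, which were Cdkn1a and Eda2r, and none fell, where 0.119% of all tested genes rose. The median log2 fold change was 0.08 beside −0.0038 over all tested genes. At an unadjusted p below 0.05 (edgeR), 10 members were higher and 2 lower, where 8.27% of all tested genes passed in either direction. The list summed to 1210 to 1260 CPM in healthy and 1270 to 1400 CPM in Adriamycin kidneys, so the groups were apart by a narrow gap. Sums of other lists were apart too. The erythroid list was at 315 to 424 CPM against 456 to 648 CPM. The renin-angiotensin system list was at 1660 to 1920 CPM against 1520 to 1640 CPM. Mdm2, the ubiquitin ligase that p53 induces to limit itself, was at 42.3 to 46.4 CPM in healthy and 42.5 to 46.3 CPM in Adriamycin kidneys (log2 fold change 0.02 ± 0.05). Ccng1, cyclin G1, was at 192 to 218 CPM in healthy and 237 to 253 CPM in Adriamycin kidneys, apart but short of the adjusted threshold. Gdf15, a stress cytokine, had a log2 fold change of 0 ± 0.39. None of 25 genes of DNA damage signaling and repair passed, and their median was 0.07. The cell cycle inhibitor Cdkn1c, encoding p57, which mature podocytes also express, rose by 0.56 ± 0.09 on the log2 scale (41.5 to 47.1 CPM against 57.8 to 73.8 CPM, adjusted p = 0.0188). Ccnd1, the cyclin D1 that promotes entry into the cycle, also rose, by 0.54 ± 0.10 from a mean of 313 to 455 CPM (adjusted p = 0.0262, named after its values were seen). Among 35 genes of S and M phase none passed, and the proliferation marker Mki67 was at 0.34 ± 0.30.

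Because Cdkn1a and Eda2r are p53 targets, the RefSeq promoter windows (GRCm38.p6, from 250 bases before to 50 after a start site) were searched for the p53 consensus, a pair of decamers with a spacer of up to 13 bases. Their central CWWG letters had to be intact, with up to 2 mismatches elsewhere. The consensus is its own reverse complement, so the search covers both strands. A match was in 697 of 32851 windows (2.12%), in 5 of the 40 windows of the p53 list and in 1 of the 49 windows that 37 of the 53 called genes had, that of Cdkn1a. The windows of Eda2r and Abcb1b held no match. For each window only the match with the fewest mismatches was kept. For Cdkn1a this site (chr17:29090906-29090937, plus strand, 73 to 42 bases upstream of the start site) had 0 mismatches. Its second decamer and the bases that directly follow it also make a match, with 1 mismatch and no spacer. The kept site is shown within the 250 upstream bases, with the site and its spacer in capitals and the rest of the overlapping match in lower case.
Cdkn1a upstream: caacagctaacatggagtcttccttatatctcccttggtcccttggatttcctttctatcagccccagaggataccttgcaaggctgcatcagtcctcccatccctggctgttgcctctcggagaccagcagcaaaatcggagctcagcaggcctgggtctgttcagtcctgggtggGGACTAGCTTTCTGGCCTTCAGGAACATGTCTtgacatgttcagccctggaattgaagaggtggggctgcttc
The upstream sites of 3 other members of the list, each with 2 mismatches, are set beside it to show how the matched letters compare, with bases that fit the consensus in capitals and mismatches and spacers in lower case. None of these 3 genes passed the threshold: the log2 fold changes were 0.17 for Bax, 0.08 for Ckap2 and −0.01 for Sesn1.
Cdkn1a: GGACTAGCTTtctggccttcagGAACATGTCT
Bax: tGACAAGCaTatcccAGGCAAGCTT
Ckap2: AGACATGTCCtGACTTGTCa
Sesn1: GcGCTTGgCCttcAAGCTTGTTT

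Cyp2d9, a cytochrome P450 of steroid hydroxylation, was at 10.9, 7.79, 6.86 and 10.5 CPM in healthy and at 26.3, 23.5, 28.7 and 22.4 CPM in Adriamycin kidneys. These groups were far apart, with a log2 fold change of 1.48 ± 0.20 (adjusted p = 0.00381). Ugt1a10, a glucuronosyltransferase, rose by 1.42 ± 0.24 on the log2 scale from 7.76 to 20.7 CPM in healthy mice to 29.2 to 41.8 CPM (adjusted p = 0.0203). The Ugt1a genes share their last exons and Cyp2d9 has close paralogs, so the assignment of these reads is uncertain. Maob, the monoamine oxidase, rose by 0.81 ± 0.12 (4.65 to 5.04 CPM against 6.74 to 9.92 CPM, adjusted p = 0.00911). Utp20, needed for making the small ribosomal subunit, rose by 0.50 ± 0.08 (adjusted p = 0.0172). Of 15 genes for the target, export and reduction of doxorubicin, Abcb1b alone passed, where 0.119% of all tested genes rose. The list's median was 0.12.

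**Figure D2:**
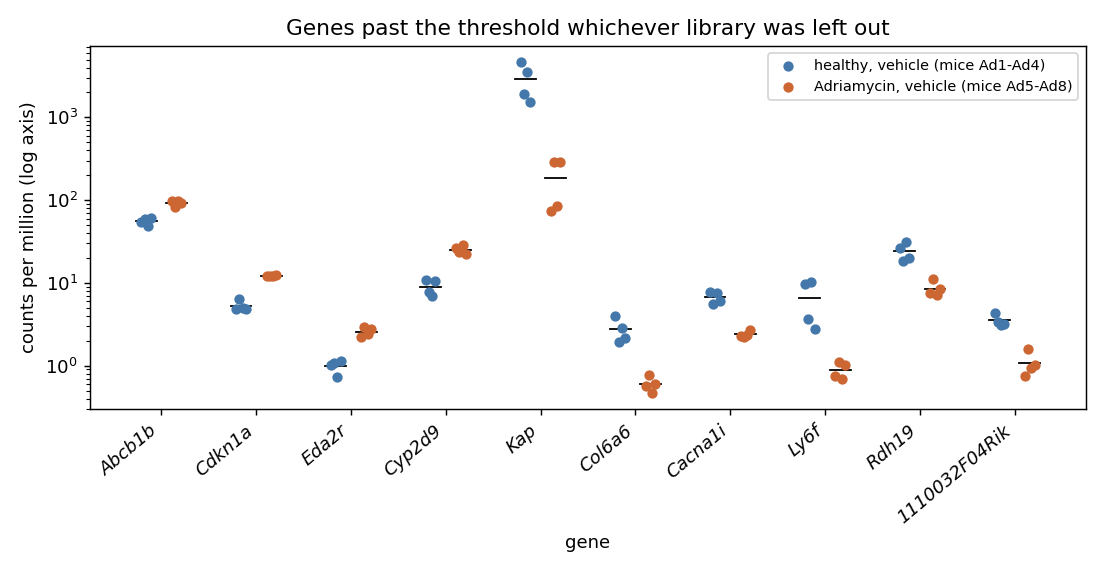
CPM of each mouse (points, log axis) and group means (bars) for the 10 genes that passed the threshold whichever of the 8 libraries was left out, with healthy mice in blue and Adriamycin mice in orange. The groups are apart for every gene, and Kap spans the widest range, from 4610 CPM in a healthy mouse to 73.2 CPM in an Adriamycin mouse.

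Kap, the kidney androgen-regulated protein of proximal tubules, fell the most among abundant transcripts. It was at 4610, 1910, 3560 and 1550 CPM in the healthy mice and at 73.2, 290, 84.9 and 288 CPM in the Adriamycin mice. The lowest healthy value was thus several times the highest diseased value, while each group varied widely within itself. The log2 fold change was −3.98 ± 0.48 (adjusted p = 0.00165). Rdh19, a retinol dehydrogenase family member, was at 26.5, 18.6, 31.4 and 20.1 CPM in healthy and at 7.53, 11, 7.23 and 8.35 CPM in Adriamycin kidneys (log2 fold change −1.50 ± 0.21, adjusted p = 0.00449). Serpina6, the corticosteroid-binding globulin, fell by 2.55 on the log2 scale from a mean of 8.2 to 1.42 CPM (adjusted p = 0.0254). Hdc, which makes histamine from histidine, fell by 2.20 from 17 to 3.74 CPM (adjusted p = 0.0376). Serpina6 and Hdc were named after their values were seen.

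Col6a6, a chain of collagen VI, was at 4.03, 1.92, 2.89 and 2.16 CPM in healthy and at 0.561, 0.78, 0.473 and 0.596 CPM in Adriamycin mice, with a log2 fold change of −2.19 ± 0.28 (adjusted p = 0.00371). Cacna1i, a T-type calcium channel, was at 7.76, 5.5, 7.55 and 6.05 CPM against 2.29, 2.25, 2.32 and 2.68 CPM (−1.50 ± 0.21, adjusted p = 0.00449). Ly6f, of the Ly6 family of surface proteins, was at 2.79 to 10.4 CPM against 0.689 to 1.1 CPM (−2.91 ± 0.41, adjusted p = 0.00449). Reads of Ly6f and of Apol10b, an apolipoprotein L gene that fell by 3.08, could be shared with neighboring paralogs. Cited1, a transcriptional coactivator of the developing kidney, fell by 1.61 ± 0.26 (adjusted p = 0.0172). Adamts8, a secreted protease, fell by 2.00 ± 0.33 (adjusted p = 0.0172), and Sec14l3, a lipid-binding protein, by 3.37 ± 0.64 (adjusted p = 0.0316). Mice Ad1 and Ad3 were the highest of all 8 for Kap, Col6a6, Ly6f, Rdh19 and Sec14l3, and the same mice held the most Adipoq. Among the healthy mice with FGF23, Ad9 and Ad10 held the most Adipoq. Of the same genes, Sec14l3 alone was highest in Ad9 and Ad10. Kap, Ly6f and Rdh19 were highest in Ad11, and Col6a6 in Ad12. A link of these genes with fat content was not tested.

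Transporters of the proximal tubule changed in part. Of 22 organic anion and cation transport genes, 2 fell and 0 rose, with a median of 0, where 0.212% of all tested genes fell and 0.119% rose. Slc22a7, the organic anion transporter OAT2, was at 190, 107, 153 and 98 CPM in healthy and at 38.4, 69.1, 39 and 56 CPM in Adriamycin kidneys. The groups did not overlap, with a log2 fold change of −1.44 ± 0.25 (adjusted p = 0.0254). Slc22a26, of the same family and with close paralogs, fell by 1.74 ± 0.31 (adjusted p = 0.0264). Neither Slc22a6 (0.01 ± 0.15) nor Slc22a8 (0.11 ± 0.15), the main organic anion uptake carriers, passed. Slc17a2, a sodium-phosphate cotransporter family member, fell by 1.47 ± 0.24 (adjusted p = 0.0172). None of 26 solute transport genes and none of 24 genes of protein uptake and lysosomes passed, with medians of 0.06 and 0.02. Megalin (Lrp2) was at −0.18 ± 0.11, cubilin (Cubn) at −0.02 ± 0.10 and the phosphate cotransporter Slc34a1 at −0.04 ± 0.11.

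Vitamin D genes moved in opposite directions. Of 24 genes of FGF23 signaling, vitamin D and phosphate, 1 rose and 1 fell, with a median of 0. Of all tested genes 0.119% rose and 0.212% fell. Cyp27b1, the 1α-hydroxylase that activates vitamin D, was at 14.2, 17.5, 21 and 13.9 CPM in healthy and at 5.99, 3.86, 5.51 and 4.65 CPM in Adriamycin kidneys. The groups were apart and the log2 fold change was −1.73 ± 0.35, just past the threshold (adjusted p = 0.049), and it did not pass when any mouse was left out (adjusted p = 0.0614 to 0.2). Gc, the vitamin D-binding protein, which proximal tubules also reclaim from the filtrate, rose from 131 to 194 CPM to 219 to 323 CPM (0.80 ± 0.14, adjusted p = 0.0255). Cyp24a1, which degrades vitamin D, was at 161 CPM in mouse Ad7 and at 28.7 to 46.5 CPM in the other Adriamycin mice (0.84 ± 0.62, adjusted p = 0.795). Klotho (Kl), the FGF23 co-receptor, was at 623 to 714 CPM in healthy and 607 to 838 CPM in diseased kidneys (0.08 ± 0.11).

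Core clock genes changed in part. Of 19 tested, Ciart, a repressor of the clock, rose by 0.52 ± 0.10 (19.2 to 22.3 CPM against 25.7 to 34 CPM, adjusted p = 0.0376). Among all tested genes 0.119% rose. Nr1d1, encoding REV-ERBα, was at 74.4 to 106 CPM in healthy and 134 to 154 CPM in Adriamycin kidneys (0.61 ± 0.13, adjusted p = 0.0683). The median of the list was 0.04. The time of day of sampling was not given in the sources used here.

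Podocyte, tubular injury and matrix lists held 1 called gene. Of 25 slit diaphragm and adhesion genes none passed (median 0.02). Of 21 podocyte identity genes 1 rose, Cdkn1c (median −0.01), where 0.119% of all tested genes rose. Nephrin (Nphs1) was at 45.8 to 53.5 CPM in healthy and 44 to 60 CPM in Adriamycin kidneys (0.01 ± 0.09). Wt1, a transcription factor of podocytes, was at 0.03 ± 0.13. A p above the threshold does not show that the groups were equal.

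Of 31 tubular injury genes none passed, and their median was −0.06. Havcr1, encoding KIM-1, the injury marker of proximal tubules, was at 158, 94.7, 163 and 73.8 CPM in the healthy mice and at 33.5, 83.1, 40.1 and 55.5 CPM in the Adriamycin mice. The groups overlapped through mice Ad4 and Ad6, and the log2 fold change was −1.21 ± 0.28 (adjusted p = 0.101, or 0.0215 in DESeq2). Lcn2, encoding neutrophil gelatinase-associated lipocalin, was at 1.22 to 2.91 CPM against 0.477 to 3.4 CPM (−0.06 ± 0.43). None of 30 listed collagen and matrix genes passed, but only 3 of the 30 had a positive log2 fold change (median −0.19, lowest −1.24). Col1a1 was at −0.51 ± 0.39 and Col3a1 at −0.59 ± 0.43. This list did not hold Col6a6, the collagen VI chain that was called lower (−2.19 ± 0.28, adjusted p = 0.00371). Of 28 TGF-beta and myofibroblast genes none passed and 7 were positive (median −0.14), where 48.6% of all tested genes were positive.

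Immune lists held no called gene. The median of 20 macrophage markers was 0.05 and that of 9 T and NK cell markers −0.41, with Adgre1 at −0.10 ± 0.14, Cd3e at −0.60 ± 0.46 and the pan-leukocyte gene Ptprc at 0.01 ± 0.13. Complement C3 (0.21 ± 0.12), the adhesion molecule Vcam1 (0.01 ± 0.16) and osteopontin Spp1 (−0.15 ± 0.09) did not pass. Of 30 interferon-gamma-type genes 26 had a positive log2 fold change and the median was 0.56, with 0 called. At an unadjusted p below 0.05 (edgeR), 20 were higher and 1 lower, where 8.27% of all tested genes passed in either direction. The groups were apart for 5 of the 30 (5.68% of all tested genes), and the list's median in the pair with FGF23 was 0.06. Mouse Ad5 stood highest, with a summed level of 1380 CPM for the list, beside 950, 739 and 688 CPM in mice Ad6 to Ad8 and 686 to 765 CPM in healthy mice. Iigp1, an interferon-induced GTPase, was at 60.1, 20.5, 13.2 and 11.7 CPM in mice Ad5 to Ad8 and at 9.8 to 12.7 CPM in healthy mice. The MHC class II gene H2-Ab1 was at 206, 113, 79 and 78.4 CPM in the same mice and at 66.8 to 80.5 CPM in healthy mice. Erythroid genes had a median of 0.79 over 9 members, none called, with 6 higher and 0 lower at an unadjusted p below 0.05 (edgeR). The groups were apart for 5 of the 9, and the median in the pair with FGF23 was 0.1. Hba-a1, a hemoglobin gene with a near-identical copy, was at 23.9 to 43.4 CPM against 43.1 to 75.7 CPM (0.83 ± 0.28). Fgb, the fibrinogen chain, was below the count filter, with 1 to 22 counts in healthy and 0 to 5 counts in Adriamycin libraries.

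**Figure D3:**
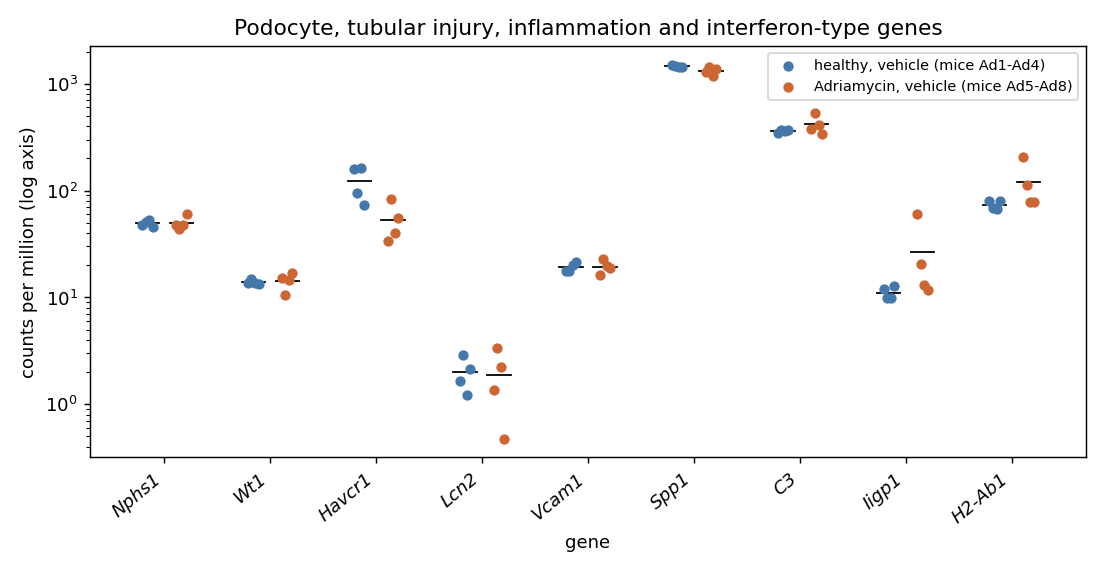
CPM of each mouse (points, log axis) and group means (bars) for podocyte, injury, inflammation and interferon-type genes, with healthy mice in blue and Adriamycin mice in orange. The groups overlap for all genes shown except Spp1, and mouse Ad5 stands above the rest for Iigp1 (60.1 CPM) and H2-Ab1 (206 CPM).

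The pair of groups given FGF23 measured the same disease contrast in 8 other mice. Of 16020 genes 112 (0.699%) passed there, 74 (0.462%) higher and 38 (0.237%) lower. Of the 19 genes that rose with vehicle all had a positive log2 fold change with FGF23 and 10 passed, and of the 34 that fell 33 had a negative one and 12 passed. The median was smaller with FGF23, at 0.42 for the higher and −0.98 for the lower genes. These genes were picked by their p in the vehicle pair, which favors large changes there. A smaller median in other mice is therefore no measure of a weaker effect with FGF23.

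Abcb1b was at 58.3 to 64.4 CPM in healthy mice with FGF23 and at 80.5 to 98.8 CPM in Adriamycin mice with FGF23 (log2 fold change 0.59, adjusted p = 0.00258). Cdkn1a was at 5.39 to 7.77 CPM against 11.8 to 18.7 CPM (1.07, adjusted p = 0.00258), Cyp2d9 at 4.62 to 11.6 CPM against 22.7 to 28.1 CPM (1.51, adjusted p = 0.00258) and Kap at 2660 to 3200 CPM against 283 to 643 CPM (−2.50, adjusted p = 0.0171). For these 4 genes the groups were again apart. Eda2r was at 1.31 to 2.12 CPM against 1.5 to 1.98 CPM and overlapped (0.15, adjusted p = 0.792). Cyp27b1 was at 2.73 to 14.1 CPM against 3.27 to 6.49 CPM (−0.50, adjusted p = 0.609). The test of the difference between the disease effects with FGF23 and with vehicle called 0 genes in edgeR, where 819 had an unadjusted p below 0.05, and 7 in DESeq2, so neither Eda2r nor Cyp27b1 was shown to differ.

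**Figure D4:**
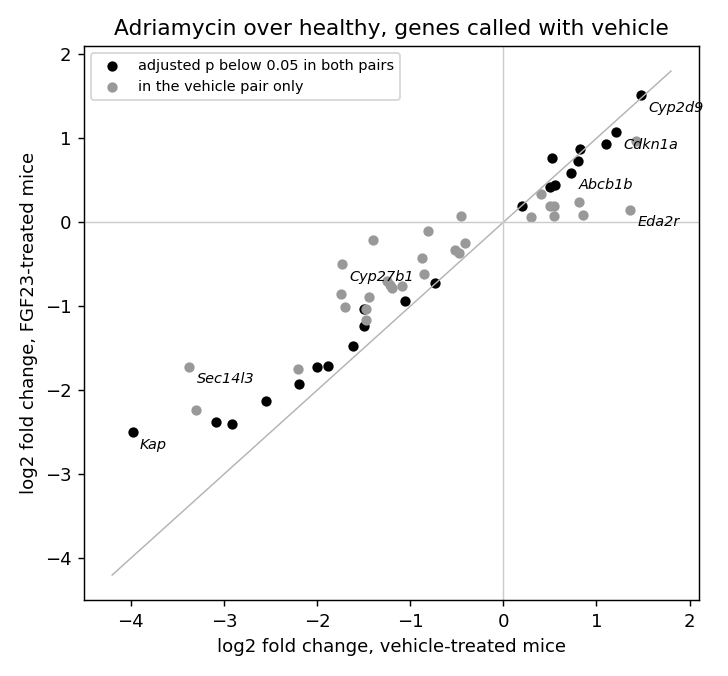
Log2 fold change of Adriamycin over healthy kidneys in mice with vehicle (horizontal) and in mice with FGF23 (vertical) for the genes called with vehicle, without Tprg, whose counts were 0 in all Adriamycin vehicle libraries. The gray line marks equal values, black points passed in both pairs, and Kap lies at −3.98 and −2.50 while Eda2r lies at 1.36 and 0.15.

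Far more genes passed in anti-GBM disease than with Adriamycin. In a fit of 30 libraries 7592 of 16954 genes (44.8%) passed for anti-GBM over healthy C57BL/6 kidneys, and 5316 (31.4%) differed in effect between the models. All 31 tubular injury genes rose in anti-GBM disease (22.4% of all genes did), with a median log2 fold change of 1.96, and 30 of 31 had a higher effect there than with Adriamycin (15.7% of all genes). Havcr1 was at 0.822 to 2.55 CPM in healthy male C57BL/6 and 159 to 365 CPM in anti-GBM kidneys. The difference of the 2 effects was −8.41 on the log2 scale (adjusted p = 3.09e-09). For Lcn2 the difference was −6.80 (adjusted p = 4.02e-06) and for Vcam1 −3.43 (adjusted p = 2.24e-08).

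Some genes called with Adriamycin moved otherwise in anti-GBM disease. Cdkn1a rose in both, by 3.04 on the log2 scale in anti-GBM disease (adjusted p = 4.89e-09), which was the larger effect (difference −1.82, adjusted p = 0.000793). Abcb1b had nearly the same effect, 0.74 against 0.73 (difference −0.01, adjusted p = 0.988). Cyp27b1 rose by 1.74 in anti-GBM disease (difference −3.47, adjusted p = 9.13e-05). Cyp2d9 fell by 0.89 there (difference 2.38, adjusted p = 0.000275). Of the 19 genes that rose with Adriamycin 8 also rose and 7 fell in anti-GBM disease, and of the 34 that fell 4 fell and 6 rose, where 22.4% of all genes rose and 22.4% fell.

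**Figure D5:**
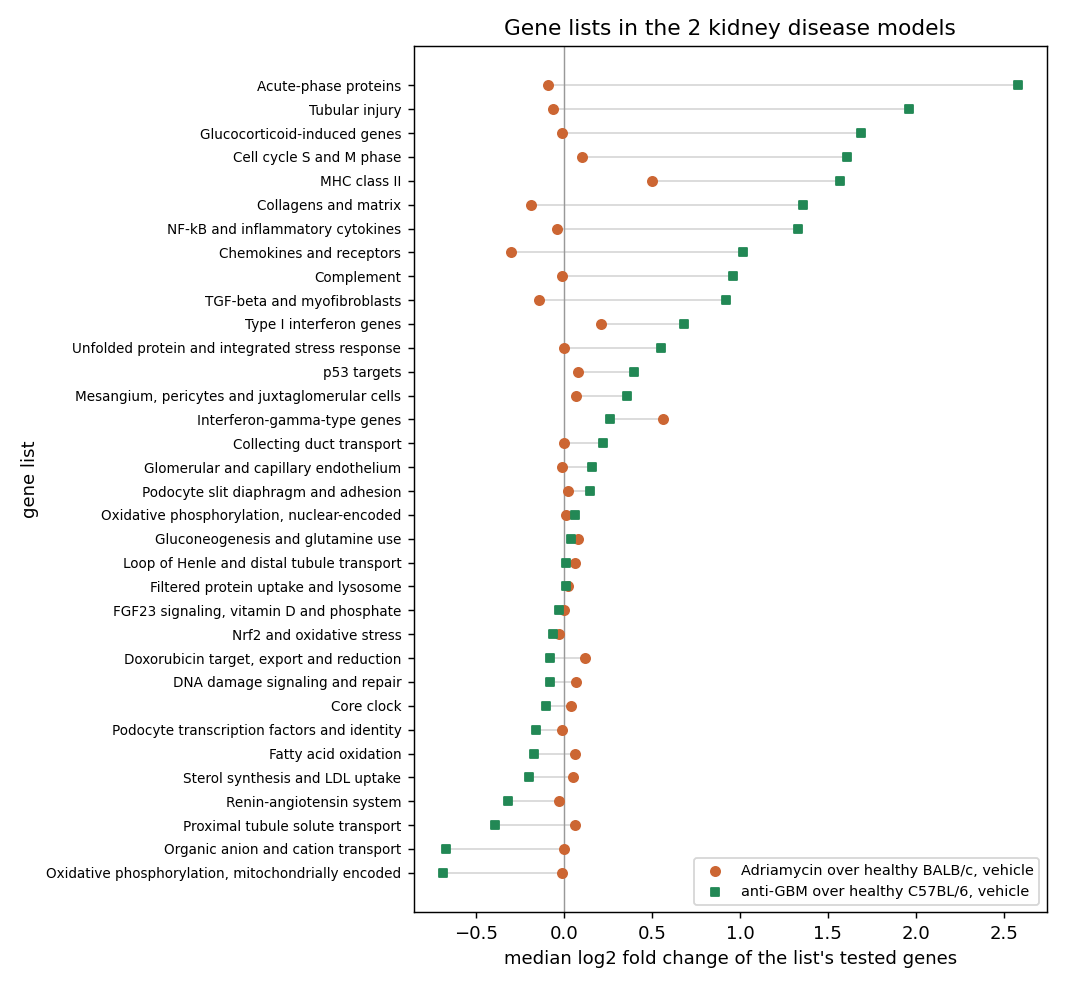
Median log2 fold change of the tested genes of each pathway list for Adriamycin over healthy BALB/c kidneys (orange circles) and anti-GBM over healthy C57BL/6 kidneys (green squares), both with vehicle. The Adriamycin medians lie between −0.30 (chemokines and receptors) and 0.56 (interferon-gamma-type genes), while tubular injury genes reach 1.96 in anti-GBM disease.

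The genes called with Adriamycin were also read in healthy kidneys of the 2 backgrounds, male C57BL/6 against female BALB/c. All these mice had FGF23, so their libraries lie outside the vehicle pair, but it was given daily to C57BL/6 and as a single injection to BALB/c. This comparison was added after seeing the data, and sex, strain, FGF23 schedule and experiment cannot be told apart in it. Of the 34 genes that fell with Adriamycin 20 were higher in female BALB/c and 6 in male C57BL/6 kidneys, where 18.1% and 18.6% of all genes were. Of the 19 that rose, 8 were higher in female BALB/c and 6 in male C57BL/6. To be called as lower, a gene had to be expressed in healthy BALB/c kidneys, which favors genes that are high in that background. No conclusion is therefore drawn from these counts. Rdh19 (−7.82), Cacna1i (−5.30), Slc17a2 (−5.20) and Cited1 (−5.06) were lower in the male C57BL/6 mice on the log2 scale, while Kap (2.97), Slc22a26 (3.11) and Cyp2d9 (4.27) were higher. Havcr1, not called with Adriamycin, was lower in the healthy male C57BL/6 than in the healthy female BALB/c kidneys (−4.34).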

How the data were processed

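RNA of a kidney piece from each mouse was sequenced as stranded mRNA libraries. Per the labels and the study's methods, the authors aligned reads to GRCm38 with STAR 2.7.9a and deposited raw counts per Ensembl gene from featureCounts 1.5.1, whose strand setting and handling of shared reads were not given in the sources used here. Symbols came from a table of Ensembl names (55141 of 55487 genes) and positions from GENCODE M21. Counts were tested with edgeR 4.0.16 (TMM, filterByExpr with a minimum of 10, quasi-likelihood, Benjamini-Hochberg) in R 4.3.3 over all 16 libraries of the Adriamycin experiment, which share 1 estimate of spread, and for anti-GBM disease over 30 libraries. The method was tested on simulated data. SE is the log2 fold change divided by the root of F. Replicates are separate mice, and no pair of libraries agreed within sampling noise (chi-square per degree of freedom 6.45 or more). Named genes were the 8 smallest p-values and 4 largest separated changes per direction, up to 2 called genes per list and direction, and a fixed set of markers; others are named as examples of a list, for an outlying value or after their values were seen. The comparison and the 49 gene lists were chosen with earlier results of these data known. A few genes of the fixed rule are not reported here. DESeq2 1.42.0 and other filters, scalings and left-out libraries were alternatives.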

Additional observations from a re-analysis of the deposited data

Results flagged for a closer look

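Among 122 group values of named genes and marker lists, 5 held a mouse set apart from the other 3 of its group by Dixon's criterion, and chance flags about 1 in 20 such groups. Cdkn1a was at 6.44 CPM in healthy mouse Ad2, above the other healthy mice and below all Adriamycin mice. Cacna1i was at 2.68 CPM in Adriamycin mouse Ad8, still below all healthy mice. Cyp24a1 was at 161 CPM in Adriamycin mouse Ad7, and without it the log2 fold change was −0.02. The summed level of the neutrophil markers was 3.97 CPM in healthy mouse Ad3, and that of the intercalated cell markers was 1220 CPM in healthy mouse Ad2.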

How the results depend on the processing

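No paired analysis was possible because the count columns carry no replicate numbers of the labels. Of the 53 genes called, 53 kept their direction under RLE scaling, DESeq2, the robust fit, no filter and every left-out mouse, 51 with the 8 vehicle libraries alone and 48 with at least 10 counts in every library, in which fewer genes could be tested. The count of 53 (19 higher, 34 lower) became 98 (39, 59) with no count filter, 147 (63, 84) in DESeq2, 19 (8, 11) with the 8 libraries alone, 31 genes (5 higher) above 2-fold, and 11 (5, 6) at an adjusted p of 0.01. It was 0 (0, 0) without Ad1, Ad3 and Ad8 together, an alternative chosen after seeing the data that leaves 5 vehicle libraries. The 2 calls among organic anion and cation transport genes were 0 with the 8 libraries alone and 4 in DESeq2. Leaving out 1 mouse gave 10 to 100 genes, 4 to 45 higher and 6 to 55 lower.

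With FGF23 the 112 genes (74 higher, 38 lower) became 265 (154, 111) in DESeq2, 31 (15, 16) above 2-fold and 19 (18, 1) at 0.01, with 61 lower without a filter and 48 higher without Ad1, Ad3 and Ad8; leaving out 1 vehicle mouse gave 91 to 116, 64 to 81 higher and 27 to 37 lower. The interaction gave 1 gene (1 higher) with no filter and 7 (6, 1) in DESeq2. The difference from anti-GBM disease, 5316 genes, became 1552 (337, 1215) above 2-fold, 3198 (1614, 1584) at 0.01 and 3298 (1503 higher) without the 3 mice; leaving out 1 mouse gave 4612 to 5277, 2137 to 2639 higher and 2338 to 2638 lower.

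Reversals were seen only among named genes that were not called. Without the 3 mice they were Cd3e (0.61), Kl (−0.04), Adgre1 (0.03), Wt1 (−0.07), Cubn (0.02), Nphs1 (−0.05), Vcam1 (0) and Gdf15 (−0.4), and Gdf15 was 0 with the stricter filter. With 1 mouse left out the ranges were −0.02 to 1.15 for Cyp24a1, −0.85 to 0.11 for Cd3e, −0.01 to 0.15 for Kl, −0.05 to 0.19 for Umod, −0.03 to 0.29 for Top2a, −0.12 to 0.03 for Slc34a1, −0.06 to 0.16 for Wt1, −0.11 to 0.06 for Cubn, −0.08 to 0.07 for Nphs1, −0.5 to 0.23 for Lcn2, −0.04 to 0.1 for Ptprc, −0.08 to 0.08 for Vcam1 and −0.28 to 0.21 for Gdf15. The causes were not tested. With 4 mice a group and 17187586 counts or more, small changes of low genes were not detectable.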
